A study of Mus musculus with 6 samples.

Results

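The mitochondrial carriers of the Slc25 family were followed through the maturation of the mouse oocyte. The members were all probe sets that the array annotation paired with exactly 1 gene symbol starting with Slc25a, a choice that used no measured value. It gave 61 probe sets for 38 genes, of 11429 genes with such a probe set in the whole series. Of 47 protein-coding Slc25a genes in the RefSeq gene table, 9 were not analysed here.

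The 6 samples were 3 biological replicates of immature oocytes and 3 of mature oocytes from mice 22 to 24 days old, all primed with 5 IU of equine chorionic gonadotropin, which drives follicle growth. Their strain was not named. Immature oocytes, at the germinal vesicle (GV) stage with the nucleus intact, came from large antral follicles 44 to 46 h after priming and were stripped of cumulus cells with a fine pipette. The medium held 5 µM milrinone, which blocks the oocyte's phosphodiesterase and so keeps meiosis from resuming, and the labels call the medium of the mature oocytes the same. Mature oocytes, waiting at the second meiotic metaphase (MII) and with their first polar body out, were collected from oviducts 14 h after 5 IU of human chorionic gonadotropin, which triggers ovulation. Their cumulus cells were taken off with 1 mg/ml hyaluronidase. Each sample pooled 300 oocytes, and 10 ng of its total RNA was amplified over a pair of rounds with a mixed primer set and put on 1 short-oligonucleotide array. The stages thus differ in hormone treatment, site of collection and way of removing cumulus cells as well as in meiotic stage, and these cannot be told apart.

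Slc25 proteins sit mostly in the inner mitochondrial membrane and pass metabolites between the cytosol and the matrix: ADP and ATP, phosphate, carboxylates, amino acids, acylcarnitine, cofactors and iron. Most work as exchangers, so that a carrier links a pathway in the matrix to one outside it. The oocyte relies on its mitochondria for ATP, and the full-grown oocyte makes almost no new RNA, so maturation proceeds on stored transcripts.

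Values are log2 expression values as the authors deposited them, 1 array per sample, and 3 arrays a stage limit the precision. Each amplification started from the same mass of total RNA, and fewer cells of a type and less RNA per cell cannot be told apart. Arrays of 1 stage correlated at 0.988 to 0.991 over 21646 probe sets, which are not independent replicates, and arrays of different stages at 0.885 to 0.906. Of 12 oocyte markers 12 exceeded the median probe set (5.85) in their mean level, against 2 of 8 measured granulosa and cumulus markers. Of the granulosa and cumulus markers 4 of 8 were called lower in MII and 0 higher, and of the oocyte markers 6 and 2 of 12, where all genes had 37.8% lower and 10.5% higher. Under equal array medians 1 granulosa or cumulus marker was lower and 2 higher, where 4306 of all 21646 probe sets were lower and 12016 higher. Their summed level on the linear scale was 443.3 to 502.1 on the GV arrays and 270.0 to 338.6 on the MII arrays, and none was listed at 0. The summed level of the oocyte markers was 46770 to 50260 and 29840 to 30910, and the part of either in the results below was not tested.

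The ADP/ATP carriers open the results, because 1 of 3 genes for the same exchange, Slc25a4, changed more than the other two. Slc25a4 (Ant1) is the form of heart and muscle, Slc25a5 (Ant2) that of dividing cells, and Slc25a31 (Ant4) is best known from male meiosis. The stretch around the start of each gene, 300 bases that lie mostly before it, is shown here so that the 3 can be set side by side (RefSeq, GRCm38.p6, 5′ to 3′ on the gene's strand). Capitals mark letters that match a motif: the core of the NRF1 site, a factor of mitochondrial genes (TGCGCA), the core of ETS sites (CGGAAG), the CCAAT box (CCAAT) or the TATA box (TATAAA), each searched on both strands, with no overlap between matches in these stretches.
Slc25a4, chr8:46211013-46211312 (- strand): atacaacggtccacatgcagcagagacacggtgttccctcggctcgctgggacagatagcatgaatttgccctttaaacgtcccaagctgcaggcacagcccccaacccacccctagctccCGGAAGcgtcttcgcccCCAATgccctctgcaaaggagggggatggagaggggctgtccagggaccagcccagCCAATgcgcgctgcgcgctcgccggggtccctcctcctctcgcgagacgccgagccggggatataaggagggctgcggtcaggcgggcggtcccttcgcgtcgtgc
Slc25a5, chrX:36795347-36795646 (+ strand): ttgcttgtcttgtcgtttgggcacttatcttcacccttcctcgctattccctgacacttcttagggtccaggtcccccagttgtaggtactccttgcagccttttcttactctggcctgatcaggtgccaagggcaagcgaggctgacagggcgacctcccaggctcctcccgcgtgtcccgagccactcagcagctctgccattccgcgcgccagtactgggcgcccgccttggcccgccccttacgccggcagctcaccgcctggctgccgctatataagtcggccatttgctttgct
Slc25a31, chr3:40708621-40708920 (+ strand): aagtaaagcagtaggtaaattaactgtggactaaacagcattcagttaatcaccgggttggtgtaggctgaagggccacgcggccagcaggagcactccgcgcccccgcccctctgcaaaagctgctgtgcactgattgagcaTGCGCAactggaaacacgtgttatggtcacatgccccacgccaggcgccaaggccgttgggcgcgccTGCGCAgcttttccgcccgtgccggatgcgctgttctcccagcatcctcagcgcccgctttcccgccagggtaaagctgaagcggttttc
Slc25a31 held 2 matches to the NRF1 letters, which read alike on both strands. Slc25a4 held 2 CCAAT boxes and 1 match to the ETS letters, and Slc25a5 held none of the 4 motifs in the exact letters searched. Other forms of a motif were not searched, such as tatataa near the end of the Slc25a5 stretch and gatataa near that of Slc25a4. A TATA box is thus not excluded in either. Such a table entry was found for 30 of the 38 genes, as 37 stretches. Of these, 8.11% held the NRF1 letters, 21.6% the ETS letters, 48.6% a CCAAT box and 0% the TATA letters. Over all 32851 stretches in the table the shares were 7.76%, 16.9%, 37.4% and 13.6%. A match is a description of the letters, not a site of binding.

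The comparison of MII with GV addressed which stored transcripts differ between the stages. Of the 38 carrier genes, each taken by its brightest probe set, 12 fell and 4 rose, and 22 were not called. A gene was called when its limma p, adjusted by Benjamini-Hochberg over all probe sets, was under 0.05. The background over all 11429 genes was 37.8% lower and 10.5% higher, against 31.6% and 10.5% of the carriers, so the shares of calls were near those of genes at large. By probe set, 23 of 61 were lower and 5 higher, against 34.1% and 10.9% of all probe sets. Falls of at least 2-fold were called for 6 carrier genes, or 15.8% (23.1% of all genes), and falls of at least 4-fold for 4, or 10.5% (9.84% of all genes). No rise reached 2-fold (1.29% of all genes).

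All MII values lay below all GV values for 17 carrier genes (44.7%, against 43.3% of all genes) and above them for 5 (13.2%, against 14.6%). The median log2 difference over the 38 genes was -0.18, and over all genes it was -0.20. The middle of the family was narrower than that of all genes, with quartiles of -0.45 and 0.15 against -0.90 and 0.14. The difference ranged from -3.20 for Slc25a4 to 0.99 for Slc25a13, and 98.6% of all genes had a lower difference than Slc25a13. Of the 20 carriers brighter on average than the median probe set, 6 fell and 4 rose, and of the 18 dimmer ones 6 fell and 0 rose. Among all genes the matching shares were 41.9% and 14.7% for the brighter and 32.2% and 4.92% for the dimmer. On 13 carriers every array of both stages was under its own median, and no measure of background was used here, so differences of these genes may be lower bounds.

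**Figure D1:**
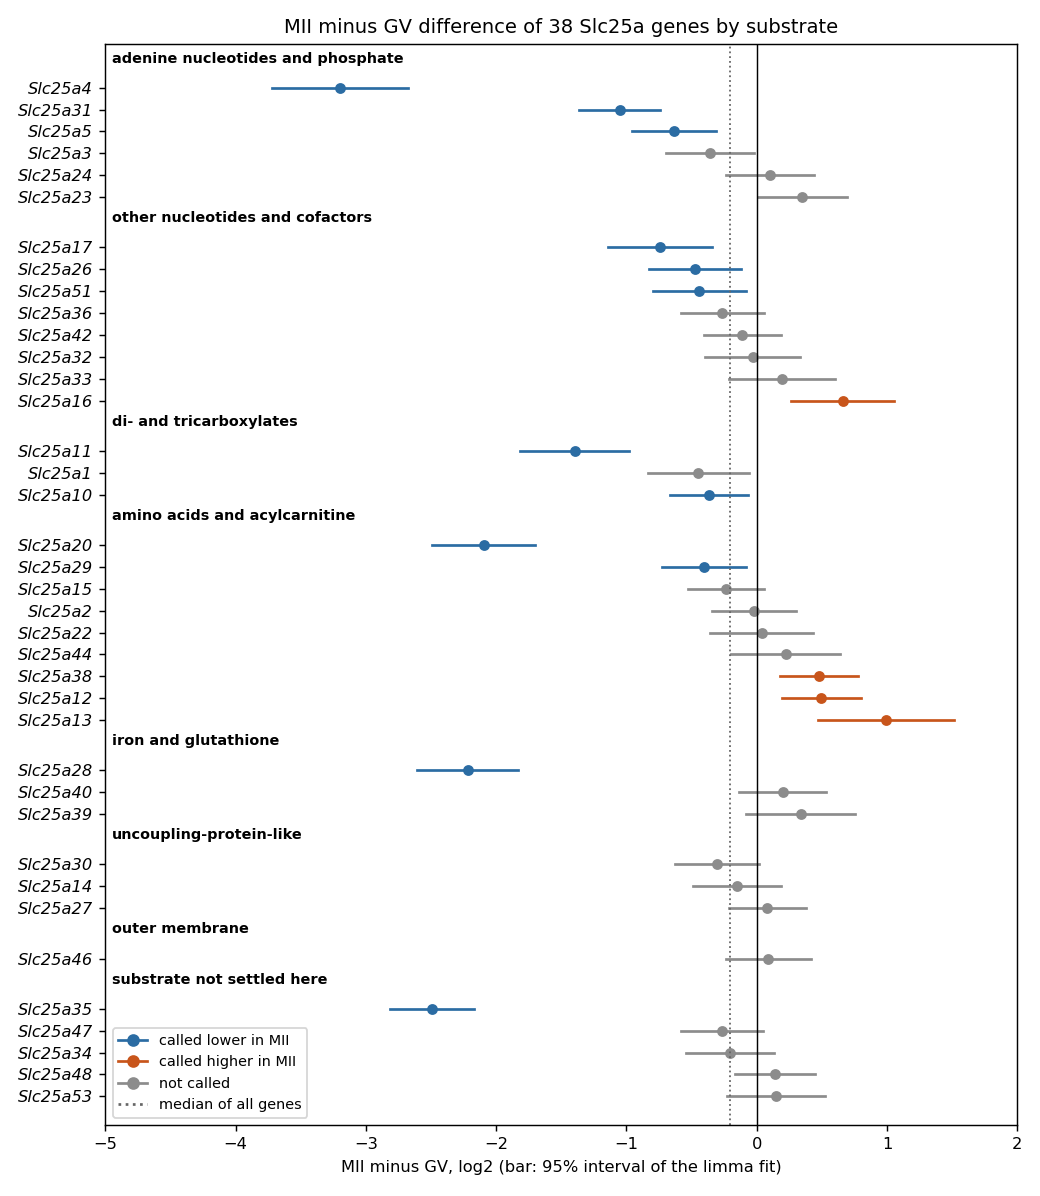
MII minus GV difference on the log2 scale (x axis) of each of the 38 carrier genes, by substrate group, with the 95% interval of the limma fit; blue is called lower, orange called higher and grey not called, and the dotted line is the median of all genes (-0.20). The 5 falls that stand farthest left are those of Slc25a4, Slc25a35, Slc25a28, Slc25a20 and Slc25a11, and the calls upward are Slc25a13, Slc25a16, Slc25a12 and Slc25a38.

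Among the carriers of adenine nucleotides and phosphate, 3 of 6 genes fell and 0 rose, with a median log2 difference of -0.50. Slc25a4 read 9.28, 9.10 and 8.91 on the GV arrays and 6.19, 6.19 and 5.31 on the MII arrays. Every MII value was thus well under every GV value, and the log2 difference was -3.20 ± 0.23 (SE, 3 samples per stage), with a limma adjusted p of 1.8e-06. Only 2.74% of all genes had a lower difference. Slc25a31 read 10.08, 9.78 and 9.94 on the GV arrays and 8.82, 8.86 and 8.96 on the MII arrays, a difference of -1.05 ± 0.14 (limma adjusted p = 0.00013). The groups did not overlap, and the MII values stayed in the bright part of the arrays.

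Slc25a5 read 9.48, 9.74 and 9.39 in GV and 8.81, 8.96 and 8.92 in MII. These values did not overlap either, but the difference was small, at -0.64 ± 0.14 (limma adjusted p = 0.0048), and it was at -0.01 and not called once array medians were made equal. The brightest Slc25a5 probe set is of the _x_at type, whose probes can match related transcripts, and the brightest of the other types differed by -0.51 with an adjusted p of 0.072. Slc25a3, which brings the phosphate for ATP synthesis into the matrix, differed by -0.36 ± 0.15 (limma adjusted p = 0.078), and was called without GV replicate 3 (-0.48). Slc25a23 and Slc25a24, which exchange ATP-Mg for phosphate and so set the size of the matrix nucleotide pool, differed by 0.35 ± 0.15 and 0.10 ± 0.15, the first of them called without GV replicate 1 (0.46). Slc25a24 was dim at both stages (means of 3.02 and 3.12).

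The unequal change of the ADP/ATP carriers was tested on the difference between genes within each array. A shift of all log2 values of an array by 1 amount cannot alter it, but an effect that varies with level can. Slc25a4 changed by -2.56 ± 0.27 relative to Slc25a5 (95% interval -3.19 to -1.94, limma adjusted p = 8.8e-05). Relative to Slc25a31 it changed by -2.15 ± 0.28 (-2.79 to -1.51, limma adjusted p = 0.00031). Both were called again with any 1 array left out, after quantile normalization and without moderation of the variance. Slc25a5 relative to Slc25a31 was at 0.42 ± 0.20 (-0.04 to 0.88, limma adjusted p = 0.13; 0.59 and called without GV replicate 2).

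**Figure D2:**
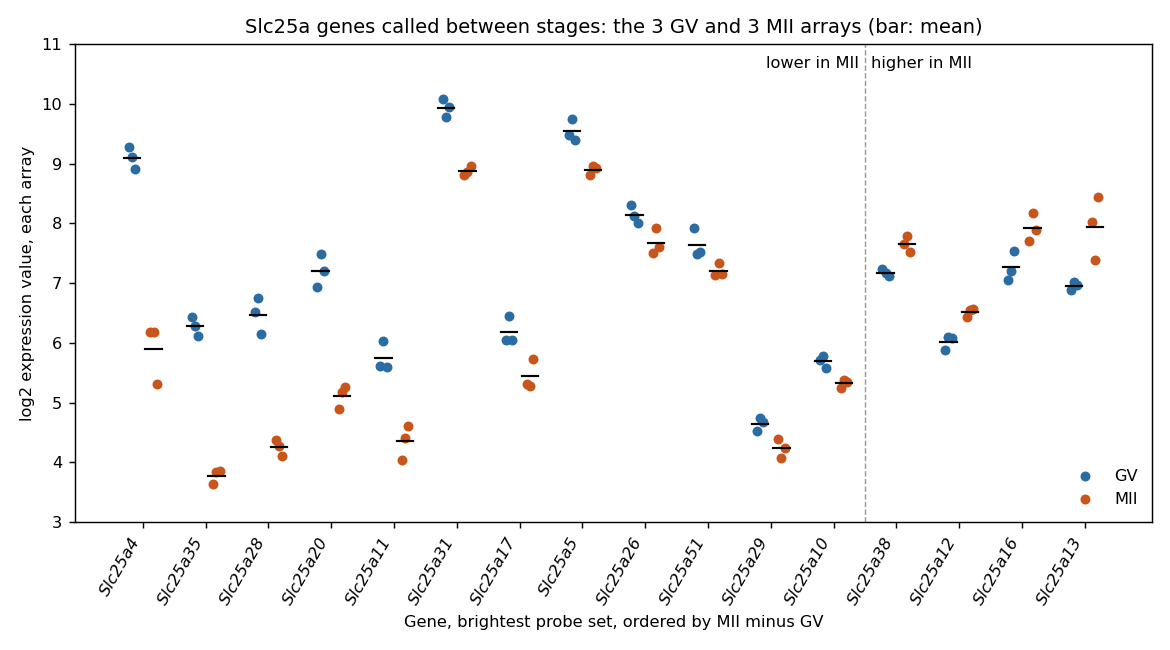
Log2 expression value (y axis) on each of the 3 GV arrays (blue) and 3 MII arrays (orange) for the 16 carrier genes called between stages, in order of the MII minus GV difference, with a bar at each mean. Stages do not overlap for any of the 16, and Slc25a4 shows the widest gap, from a mean of 9.10 to 5.90; levels of different genes come from different probes and are not comparable.

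Of the carriers of other nucleotides and cofactors 3 of 8 fell and 1 rose, with a median of -0.19. Slc25a17, a peroxisomal carrier of cofactors, read 6.04, 6.44 and 6.05 in GV and 5.30, 5.28 and 5.74 in MII (-0.74 ± 0.18, limma adjusted p = 0.0067; -0.12 and not called under equal array medians). Slc25a26, which imports S-adenosylmethionine, read 8.31, 8.12 and 8.01 in GV and 7.50, 7.92 and 7.60 in MII (-0.47 ± 0.16, limma adjusted p = 0.034). Slc25a51, the NAD importer, read 7.93, 7.48 and 7.53 in GV and 7.14, 7.33 and 7.15 in MII (-0.44 ± 0.16, limma adjusted p = 0.046). In each of the 3 the stages came close without overlapping. Both Slc25a26 and Slc25a51 lie near the threshold: the first lost its call when GV replicate 1 (-0.39), GV replicate 2 (-0.49), MII replicate 1 (-0.39) or MII replicate 3 (-0.44) was left out. Slc25a51 lost it with any array but GV replicate 2 left out, at -0.30 to -0.50.

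Slc25a16, linked to coenzyme A in the matrix, was the riser of the group. It read 7.05, 7.20 and 7.54 in GV and 7.71, 8.17 and 7.89 in MII, and the difference was 0.66 ± 0.18 (limma adjusted p = 0.012). Slc25a42, which exchanges coenzyme A for nucleotides, differed by -0.11 ± 0.13. The change of Slc25a16 relative to Slc25a42 was 0.77 ± 0.22 (95% interval 0.28 to 1.27, limma adjusted p = 0.020), a call lost when GV replicate 1 (0.69), GV replicate 2 (0.67), MII replicate 2 (0.66) or MII replicate 3 (0.77) was dropped. The carriers of pyrimidine nucleotides, Slc25a33 and Slc25a36, were at 0.19 ± 0.18 and -0.27 ± 0.14, and Slc25a32, the carrier of folate and FAD, at -0.03 ± 0.16. For the pyrimidine pair the difference of change was 0.46 (95% interval -0.10 to 1.02, limma adjusted p = 0.17), which leaves room for a difference of 1.02 or for none.

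All 3 carriers of di- and tricarboxylates had a difference below 0, and 2 of them fell. Slc25a11, which exchanges 2-oxoglutarate for malate in the malate-aspartate shuttle, read 5.62, 6.04 and 5.59 in GV and 4.05, 4.41 and 4.60 in MII. The stages were well apart, at -1.40 ± 0.19 (limma adjusted p = 0.00015). Every value was under its array's median at both stages (6.10 or more in GV and 5.47 or more in MII). Slc25a10, the dicarboxylate carrier, read 5.71, 5.78 and 5.58 in GV and 5.24, 5.38 and 5.35 in MII, a difference of -0.37 ± 0.13 (limma adjusted p = 0.047). Leaving out any single array ended that call, at adjusted p of 0.053 to 0.14 over the 6 arrays, and so did a variance prior that follows the level (0.078). Slc25a11 changed by 1.03 ± 0.19 more than Slc25a10 in the downward direction (limma adjusted p = 0.0025). Slc25a1, which exports citrate for fatty acid and cholesterol synthesis, differed by -0.45 ± 0.17 (limma adjusted p = 0.059), and was called without MII replicate 1 (-0.57, adjusted p = 0.030).

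The carriers of amino acids and acylcarnitine moved both ways, with 2 falls and 3 rises among 9 genes. Slc25a20, which brings acylcarnitine into the matrix for fatty acid oxidation, read 6.93, 7.49 and 7.19 in GV and 4.89, 5.17 and 5.26 in MII. It fell by 2.10 ± 0.18 on the log2 scale (limma adjusted p = 5.1e-06), to values under the median of each MII array. Slc25a29, a carrier of basic amino acids, read 4.52, 4.74 and 4.67 in GV and 4.40, 4.08 and 4.25 in MII (-0.40 ± 0.14, limma adjusted p = 0.043). It was dim at both stages, and the call ended when GV replicate 2 (-0.36), GV replicate 3 (-0.39), MII replicate 2 (-0.32) or MII replicate 3 (-0.41) was dropped.

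Both aspartate/glutamate carriers of the malate-aspartate shuttle rose. Slc25a13 (citrin) read 6.89, 7.01 and 6.96 in GV and 8.02, 7.38 and 8.43 in MII, a difference of 0.99 ± 0.23 (limma adjusted p = 0.0059). Its GV values were tight (SD 0.06) and its MII values spread (SD 0.53), and leaving out single arrays moved the difference between 0.75 and 1.27. Slc25a12 (aralar) read 5.87, 6.10 and 6.09 in GV and 6.43, 6.55 and 6.57 in MII (0.50 ± 0.14, limma adjusted p = 0.013). The difference of change within the pair was -0.50 (95% interval -1.09 to 0.11, limma adjusted p = 0.17; -0.79 and called without MII replicate 2). Slc25a38, which supplies glycine for heme synthesis, read 7.24, 7.18 and 7.11 in GV and 7.65, 7.78 and 7.53 in MII. It rose by 0.48 ± 0.14 (limma adjusted p = 0.015), a call lost without MII replicate 2 (0.41).

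The other amino acid carriers were not called on their brightest probe set. Slc25a15, the ornithine carrier of the urea cycle, differed by -0.24 ± 0.13. Slc25a22, a glutamate carrier, was at 0.04 ± 0.18, Slc25a44, a carrier of branched-chain amino acids, at 0.22 ± 0.19, and the ornithine carrier Slc25a2, dim at both stages, at -0.02 ± 0.15.

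Of the 3 carriers of iron and glutathione, 1 fell. Slc25a28 (mitoferrin 2), which imports iron for iron-sulfur clusters and heme outside red cells, read 6.52, 6.74 and 6.15 in GV and 4.37, 4.28 and 4.11 in MII. It fell by 2.22 ± 0.17 on the log2 scale (limma adjusted p = 3e-06), from near the median of the GV arrays (6.10 to 6.12) to well under that of the MII arrays. The glutathione carrier Slc25a39 and its paralog Slc25a40 were at 0.34 ± 0.19 and 0.20 ± 0.15, with limma adjusted p of 0.18 and 0.32. Their difference of change was 0.14 (95% interval -0.32 to 0.60, limma adjusted p = 0.62).

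No uncoupling-protein-like carrier was called. Slc25a14 read 8.74, 8.62 and 8.51 in GV and 8.26, 8.65 and 8.50 in MII, with overlapping stages and a difference of -0.15 ± 0.15. Slc25a30 read 4.99, 5.34 and 5.05 in GV and 4.73, 4.89 and 4.83 in MII (-0.30 ± 0.15, limma adjusted p = 0.12), and Slc25a27 was at 0.08 ± 0.13. The outer membrane member Slc25a46, which takes part in mitochondrial dynamics, read 4.02, 4.30 and 4.29 in GV and 4.23, 4.19 and 4.46 in MII, and its difference of 0.09 ± 0.15 lay within the spread of the replicates.

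Of 5 members whose substrate is left unnamed here, Slc25a35 fell and the others were not called. Slc25a35 read 6.43, 6.28 and 6.11 in GV and 3.64, 3.84 and 3.86 in MII, and the difference of -2.50 ± 0.15 had the lowest adjusted p of the family (limma, 3.7e-07). Slc25a34 differed by -0.21 ± 0.15, Slc25a47 by -0.27 ± 0.14, Slc25a48 by 0.14 ± 0.14 and Slc25a53 by 0.15 ± 0.17. Most of this group was dim, with only Slc25a48 above the median of all probe sets.

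For 12 carrier genes several probe sets were measured, and they did not always tell the same story. In 0 of the 12 were probe sets called in opposite directions (10.8% of all genes with several probe sets), and in 4 the calls were not all alike (56.6%). Within arrays, 7 of 23 pairs formed by the brightest and another probe set changed unequally, or 30.4% (42.6% of 7649 such pairs of all genes), and 4 of 23 without GV replicate 2, GV replicate 3 or MII replicate 1. All 3 probe sets of Slc25a4 fell, at -3.20, -2.55 and -2.46, and both of Slc25a20, at -2.10 and -1.26. In Slc25a26 the second probe set differed by -1.11 against -0.47 for the brightest, and it was called lower too (limma adjusted p = 0.00022). The brightest Slc25a4 probe set changed more than the other two (limma adjusted p = 0.036 and 0.022), the first not with GV replicate 1, 2 or 3 or MII replicate 1 or 3 left out (-0.48 to -0.74) and the second not with GV replicate 1 or 3 or MII replicate 3 (-0.56 to -0.70). The Slc25a20 pair differed by -0.83 (limma adjusted p = 0.0048) and the Slc25a26 pair by 0.64 (limma adjusted p = 0.014, 0.59 and lost without MII replicate 2). The second Slc25a17 probe set, dim at both stages, was at -0.42 and not called.

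The 8 probe sets of Slc25a5 split into 6 called lower, at -0.54 to -0.91, and 2 not called, at -0.51 and 0.10. All 6 called lower were of the _x_at type, whose probes can match related transcripts, and the 2 not called were of other types. The probe set at 0.10 ± 0.15 was under the median of every GV array and changed unequally from the brightest (limma adjusted p = 0.025). That call was lost at -0.57, -0.62 and -0.74 without GV replicate 2, MII replicate 1 and MII replicate 2. Slc25a48 changed its outcome with the probe set: the brightest was at 0.14 ± 0.14 and not called, whereas the others fell by 1.12 ± 0.27 and 0.61 ± 0.18, with limma adjusted p of 0.0070 and 0.018. Both pairs differed (limma adjusted p = 0.012 and 0.024), the second not without GV replicate 2 (0.72) or 3 (0.68) or MII replicate 1 (0.55). In Slc25a44 the dimmer probe set rose by 0.70 ± 0.16 (limma adjusted p = 0.0061) while the brightest was not called, and the pair did not pass the test (adjusted p = 0.11). The Slc25a15 probe sets lay at -0.24 and 0.27, each without overlap between stages, and that pair had a limma adjusted p of 0.085 (0.0091 after quantile normalization).

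**Figure D3:**
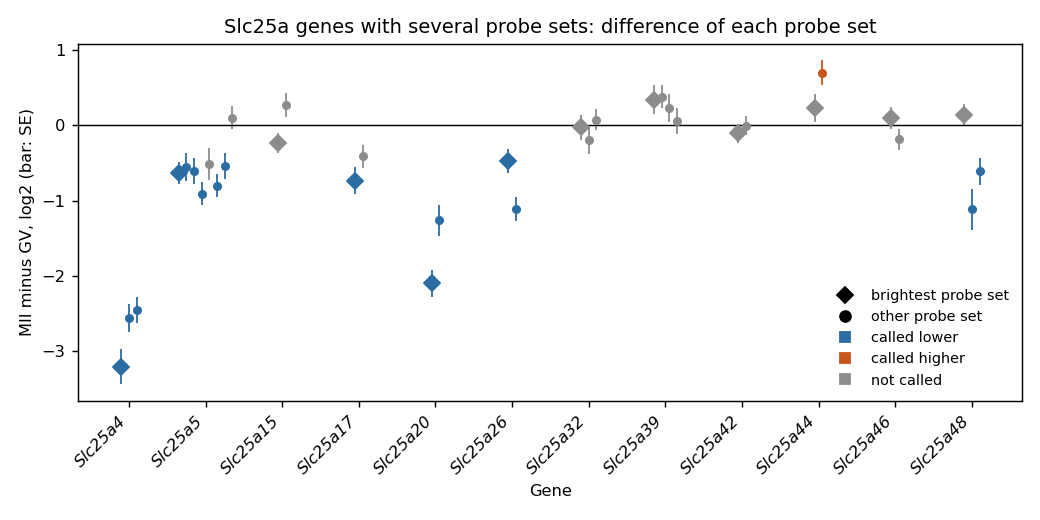
MII minus GV difference on the log2 scale (y axis, bar is SE) of every probe set of the 12 carrier genes that have several; diamonds are the brightest probe set, circles the others, blue called lower, orange called higher, grey not called. Slc25a4 and Slc25a20 are low on every probe set, Slc25a39 is at or above 0 on all 4, and Slc25a48 is on both sides of 0.

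Most directions rested on how the arrays were put on 1 scale. The deposited scale was compared with array medians made equal, quantile normalization, and hybridization or poly-A controls made equal, which shifted the median difference of all probe sets by 0.62, 0.34, -0.42 and -1.16. The medians of the hybridization controls ranged from 8.26 to 9.21 on the GV arrays and from 8.80 to 9.24 on the MII arrays. Those of the poly-A controls were 3.62 to 3.96 and 4.70 to 5.15, under the median of every array. Only 8 of the 38 genes were below 0 in all 5 scalings, 0 were above 0 in all 5, and 30 changed sign. Slc25a12, Slc25a13, Slc25a16 and Slc25a38 were below 0 only with equal poly-A controls. The 6 genes called lower in all 5 (15.8%, against 22.2% of all genes) were Slc25a4, Slc25a35, Slc25a28, Slc25a20, Slc25a11 and Slc25a31. Their mildest values, with equal array medians, were -2.58, -1.87, -1.60, -1.47, -0.77 and -0.43.

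The falls of Slc25a10, Slc25a26 and Slc25a51 on the brightest probe set turned to 0.26, 0.15 and 0.18 with equal array medians. None of them was called, and that of Slc25a29 turned to 0.22. The 4 rises became larger with equal array medians, at 1.62 for Slc25a13, 1.28 for Slc25a16, 1.12 for Slc25a12 and 1.10 for Slc25a38, and all 4 were called. None was called with equal hybridization controls, where they lay at 0.58, 0.24, 0.08 and 0.06, and with equal poly-A controls they were at -0.17, -0.50, -0.66 and -0.68, the last pair called lower. Counts followed: 6 falls and 23 rises under equal medians, 6 and 18 under quantile normalization, 9 and 0 under equal hybridization controls and 36 and 0 with equal poly-A controls. Over all 21646 probe sets the calls lower and higher were 4306 and 12016 under equal medians and 4794 and 7538 under quantile normalization. With equal hybridization controls they were 7212 and 101, and with equal poly-A controls 20241 and 12. The counts of carriers thus moved with those of the whole array. By substrate, equal array medians gave 0 falls and 5 rises among the 8 carriers of other nucleotides and cofactors (median 0.44), 1 and 7 among the 9 of amino acids and acylcarnitine (0.66) and 2 and 2 among the 6 of adenine nucleotides and phosphate (0.12). Equal poly-A controls gave 7 and 0, 8 and 0, and 6 and 0, with medians of -1.35, -1.12 and -1.66. Without moderation of the variance, the calls of Slc25a13, Slc25a16, Slc25a17, Slc25a26, Slc25a29 and Slc25a51 were lost.

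**Figure D4:**
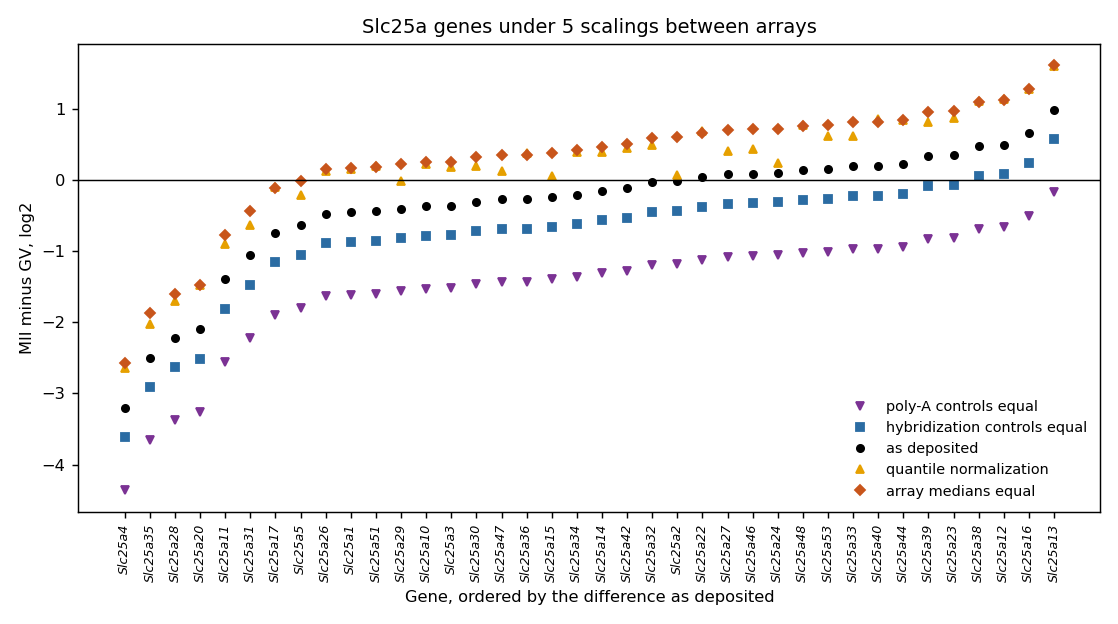
MII minus GV difference on the log2 scale (y axis) of each of the 38 carrier genes under 5 ways of scaling the arrays, in order of the deposited difference. Equal array medians or controls shift all genes of an array by 1 amount, so those symbols run parallel and keep their order by construction. After quantile normalization, which can change the order, Slc25a4 stayed lowest and Slc25a13 highest. The crossing of 0 moves from gene to gene.

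Genes that work beside the carriers were read from the same fit. Of the family members that carry other symbols, Mtch1 and Mtch2 of the outer membrane fell, at -2.32 ± 0.16 and -0.70 ± 0.19 (Mtch2 was at -0.08 with equal array medians), and Ucp3, an uncoupling protein, was at -0.18 ± 0.15. In the import pathway that chaperones carriers into the inner membrane, 7 of 14 measured genes fell and 1 rose (background 37.8% and 10.5%). Timm10b was at -4.08, the small chaperones Timm13, Timm8a1 and Timm10 at -2.79, -1.79 and -1.43, and the pore and receptor genes Tomm20, Tomm7 and Tomm40 at -2.72, -2.31 and -1.21. The inner membrane insertase gene Timm22 was at 0.04 ± 0.16 and Timm9, the partner of Timm10, at 0.35 ± 0.15, neither of them called. The 1 rise, of the receptor gene Tomm70a (0.66), had another probe set called lower, at -1.85, and so had Tomm22 (-2.16 against 0.35) and Timm29 (-0.78 against -0.09), neither called on the brightest. All 7 falls were called in the 5 scalings, but the number of rises went from 1 to 7 under equal array medians or quantile normalization. Over all 21646 probe sets the rises went from 2358 to 12016 and 7538 in those scalings.

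Among other transporters of the mitochondrial membranes, 2 of 13 fell and 1 rose, against 37.8% and 10.5% of all genes. Equal array medians gave 1 fall and 10 rises, and equal poly-A controls 12 and 0. Of all 21646 probe sets those scalings called 4306 and 20241 lower, and 12016 and 12 higher. The outer membrane pore gene Vdac3 was at -2.97 ± 0.15 and called lower in the 5 scalings, while Vdac1 and Vdac2 were at 0.46 ± 0.20 and 0.29 ± 0.20, not called (another Vdac1 probe set rose, at 0.49). Mpc1, a subunit of the pyruvate carrier, rose by 0.84 ± 0.24 (not called with equal hybridization controls, at 0.42, and at -0.32 with equal poly-A controls), and Sfxn4 fell by 0.65 ± 0.16 (-0.03 with equal array medians). The calcium uniporter gene Mcu was at 0.18 ± 0.13 on its brightest probe set and not called, while another rose, at 0.80. For Abcb8 and Letm1 another probe set was lower, at -2.48 and -1.56, and for Sfxn1 another was higher, at 0.41, where the brightest were not called.

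Enzymes that share a substrate with a carrier were split as well. Of 4 malate-aspartate shuttle enzymes Mdh2, the matrix malate dehydrogenase, was called on its brightest probe set, at -2.14 ± 0.17, and its other probe set was at -6.58 ± 0.13 (limma adjusted p = 4.2e-09). On their brightest probe sets Got1, Got2 and Mdh1 were at -0.26, 0.04 and 0.21 and not called, and another Got2 probe set was lower, at -0.53. Of 4 carnitine shuttle enzymes Cpt2, which acts in the matrix on what Slc25a20 delivers, was called lower at -1.98 ± 0.15. Cpt1a, Cpt1c and Crat were at -0.13, 0.19 and -0.16. The falls of Mdh2 and Cpt2 were called in the 5 scalings.

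Of 14 measured genes of iron-sulfur and heme synthesis 6 fell and 2 rose (37.8% and 10.5% of all genes). Under equal array medians 4 fell and 7 rose (4306 and 12016 of all 21646 probe sets). The falls were those of Glrx5 (-3.66), Isca1 (-2.74), Fech, the last enzyme of heme synthesis (-1.72), Ppox (-1.13), Hscb (-0.97) and Isca2 (-0.74). Under equal array medians Hscb was at -0.35 and Isca2 at -0.11, neither called. Cpox, not called on its brightest probe set, had another at -0.97, called lower. The cysteine desulfurase gene Nfs1 rose by 0.65 and Nfu1 by 0.44, both uncalled with equal hybridization controls and below 0 with equal poly-A controls (-0.51 and -0.72). Of 6 one-carbon enzymes 3 fell (Gcsh at -0.90, Mthfd1l at -0.64 and Mthfd2 at -0.41) and 2 rose (Shmt2 at 0.85 and Dld at 0.83, -0.31 and -0.33 with equal poly-A controls). With equal array medians Gcsh, Mthfd1l and Mthfd2 were at -0.28, -0.02 and 0.21, and after quantile normalization Mthfd1l was at 0.04. Of 3 creatine and adenylate kinases Ckb fell by 1.30, Ak4 rose by 0.59 (-0.58 with equal poly-A controls) and Ckmt1 was at -0.30. Another probe set was not called for Ak4 (-0.23), Fech (-0.30), Mtch2 (-0.26), Mthfd2 (0.38), Nfs1 (0.10), Shmt2 (0.08) and Timm8a1 (-0.20), and for Agk another was higher (0.63). These lists were chosen with earlier results of the same arrays known, and their counts describe these 6 arrays.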

How the data were processed

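RNA of 3 GV and 3 MII samples was measured on 1 array each. The authors deposited log2 values of probe sets, made with RMA and affy per the submitters' processing notes, which give no versions. How the probe sets were filtered is not stated in the labels. Of the features, 56 controls were left out and 21646 probe sets tested with limma 3.58.1 in R 4.3.3, with no covariate and Benjamini-Hochberg adjustment, at 0.05. The p-values measure the spread between biological replicates of pooled oocytes.

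A gene was represented by its brightest probe set by mean over the 6 arrays. Pairs of probe sets or paralogs were tested in limma on their difference within each array. Every carrier is named; within each substrate group, single-array values are given for called members (at most the top 3 per direction by size of change), or, with no call, for the 2 of highest mean. Members followed from the symbol rule, which used no measured value, though members and lists were chosen with earlier results of these data known. Alternatives were 4 rescalings, other variance models, other probe-set choices, a level filter, a replicate block (numbers 2 and 3 only) and single arrays left out. The scripts were tested on simulated data. Promoter sequences came from RefSeq (GRCm38.p6).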

Additional observations from a re-analysis of the deposited data

How the results depend on the processing

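Of the alternatives, those that rescale the arrays moved the results most. With array medians made equal, 10 of 61 carrier probe sets were lower and 32 higher, 6 genes were lower and 23 higher, and the median difference turned to 0.445. Of all 21646 probe sets 4306 were then lower and 12016 higher, with a median of 0.472. The sign turned for Slc25a1 (0.17), Slc25a2 (0.60), Slc25a3 (0.26), Slc25a10 (0.26), Slc25a14 (0.47), Slc25a15 (0.39), Slc25a26 (0.15), Slc25a29 (0.22), Slc25a30 (0.32), Slc25a32 (0.59), Slc25a34 (0.42), Slc25a36 (0.36), Slc25a42 (0.51), Slc25a47 (0.36) and Slc25a51 (0.18). After quantile normalization 10 carrier probe sets were lower and 24 higher, 6 genes were lower and 18 higher, and the median was 0.317. The counts over all 21646 probe sets were 4794 lower and 7538 higher, with a median of 0.188. There the sign turned for Slc25a1 (0.16), Slc25a2 (0.066), Slc25a3 (0.18), Slc25a10 (0.22), Slc25a14 (0.40), Slc25a15 (0.064), Slc25a26 (0.13), Slc25a30 (0.20), Slc25a32 (0.50), Slc25a34 (0.40), Slc25a36 (0.39), Slc25a42 (0.45), Slc25a47 (0.13) and Slc25a51 (0.19), and also for the Slc25a17 probe-set pair (0.19) and the pair of Slc25a39 and Slc25a40 (-0.043). With hybridization controls made equal, limma called 0 carrier probe sets and 0 genes higher, and the median was -0.594. It called 101 of all 21646 probe sets higher and 7212 lower, with a median of -0.568. The sign turned for Slc25a22 (-0.38), Slc25a23 (-0.065), Slc25a24 (-0.31), Slc25a27 (-0.34), Slc25a33 (-0.22), Slc25a39 (-0.078), Slc25a40 (-0.22), Slc25a44 (-0.20), Slc25a46 (-0.33), Slc25a48 (-0.28) and Slc25a53 (-0.27). With poly-A controls made equal, 58 carrier probe sets and 36 genes were lower, 0 of either higher, and the median was -1.339. Among all 21646 probe sets 20241 were lower and 12 higher, with a median of -1.312. The sign turned for Slc25a12 (-0.66), Slc25a13 (-0.17), Slc25a16 (-0.50), Slc25a22 (-1.12), Slc25a23 (-0.81), Slc25a24 (-1.06), Slc25a27 (-1.08), Slc25a33 (-0.97), Slc25a38 (-0.68), Slc25a39 (-0.82), Slc25a40 (-0.96), Slc25a44 (-0.94), Slc25a46 (-1.07), Slc25a48 (-1.02) and Slc25a53 (-1.01). Slc25a4, Slc25a11, Slc25a20, Slc25a28, Slc25a31 and Slc25a35 were called lower in all of these scalings. The cause of the shifts was not tested.

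Without moderation of the variance 15 carrier probe sets were lower and 3 higher, 2 genes were higher, and 3 probe-set pairs were called. Of all 21646 probe sets 6199 were lower and 1279 higher. Among probe sets brighter on average than the median probe set, where fewer are tested, 15 carrier probe sets and 6 carrier genes were lower. Of all 10823 such probe sets 4438 were lower. The mean over all probe sets of a gene turned Slc25a15 (0.015), Slc25a46 (-0.051) and Slc25a48 (-0.53). With single arrays left out, the number of probe-set pairs called was 4 to 5, and the difference crossed 0 for Slc25a2 from -0.11 to 0.083, Slc25a22 from -0.14 to 0.15, Slc25a32 from -0.15 to 0.053 and Slc25a46 from -0.001 to 0.14. The replicate numbers did not pair the samples: same-numbered samples correlated at 0.09, 0.03 and 0.03 in their deviations, and only numbers 2 and 3 are in the labels. A replicate block used those numbers only and left out GV replicate 1 and MII replicate 1. The changes thus come from a fit with fewer arrays as well as a block. With it, 2 probe-set pairs were called. Slc25a10 (-0.32), Slc25a12 (0.47), Slc25a26 (-0.30), Slc25a51 (-0.27) and the pair of Slc25a16 and Slc25a42 (0.80) lost their calls. Slc25a1 (-0.64) and Slc25a39 (0.60) gained one, and the sign turned for Slc25a14 (0.01), Slc25a22 (-0.21) and Slc25a24 (-0.023). With 3 arrays a stage and no background measure, small differences of dim carriers are the least certain.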
